A study of Mus musculus with 18 samples.

Results

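Platelet-derived growth factors (PDGFs) and their receptors were measured in F9 cells, a mouse embryonal carcinoma line, given retinoids. The members were taken by gene symbol: the ligand genes Pdgfa, Pdgfb and Pdgfc and the receptor genes Pdgfra and Pdgfrb. They were chosen with earlier results of these data known. All 5 were measured, each by 1 probe set, among 19938 genes. The cells grew on gelatine-coated plates in medium with foetal calf serum and received ethanol vehicle or 1 of 4 retinoids. ATRA (all-trans retinoic acid) is an agonist of all 3 retinoic acid receptors (RARs), while each of the others is labelled as selective: BMS753 acts on RARα, BMS641 on RARβ and BMS961 on RARγ. The final concentration was 0.1 µM for BMS961 and 1 µM for the other 3. Vehicle was sampled with 2 arrays, both at 48 h, and every retinoid with a single array per time, after 2, 6, 24 and 48 h, for 18 in all. F9 is 1 cell line. The labels do not state if the pair of vehicle arrays represents separate cultures, so their difference may be technical. The p-values measure that difference and, mainly, how retinoids depart from time steps that the fit shares between them. They do not measure a spread between replicate cultures of a retinoid.

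PDGFs are secreted dimers that bind receptor tyrosine kinases. PDGF-A and PDGF-C act mainly through the receptor that Pdgfra encodes, and PDGF-B binds that receptor and the one that Pdgfrb encodes. In the early mouse embryo Pdgfra marks primitive endoderm, and Pdgfa is made by the neighbouring epiblast. In later tissues Pdgfrb is best known in pericytes and smooth muscle, and Pdgfra in fibroblasts and other mesenchyme. F9 cells given retinoic acid are a widely used model of differentiation into endoderm.

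Under ATRA the receptor Pdgfrb rose and the ligands Pdgfa and Pdgfc fell, while Pdgfra was high at 48 h only and, averaged over 24 and 48 h, not called against vehicle. Pdgfra stood at 10.04 (log2) at 48 h of ATRA and 9.98 at 48 h of BMS961, 22.0-fold and 21.1-fold above the vehicle mean with 1 array each, and at 6.53 or less on every other array. Pdgfrb was higher under ATRA from 2 h on, 2.86-fold over 2 and 6 h and 2.31-fold over 24 and 48 h. Pdgfc was 3.02-fold lower early and 2.02-fold lower late under ATRA. Pdgfa was 1.82-fold lower late under ATRA and 1.83-fold lower late under BMS961. Vehicle had no early arrays, so early differences from it also hold the difference in time. No member was called under BMS753 or BMS641 against vehicle.

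Promoter windows of Pdgfra, Pdgfc and Pdgfa are shown to place the members' starts in their sequence; Pdgfb and Pdgfrb are named only. The 4 windows come from RefSeq's table for GRCm38.p6 and hold the 250 bases before a start as that table gives it, which for Pdgfra and Pdgfa lies inside the span of the gene. They are given 5′ to 3′ on the gene's strand. Capitals mark single copies of the hexamer that retinoid receptors recognise, on either strand. The letters searched were AGGTCA and the variants GGGTCA as well as AGTTCA and also GGTTCA. Pdgfra is at chr5:75152001-75152250 (plus strand), Pdgfc at chr3:81036166-81036415 (plus) and Pdgfa at chr5:138994282-138994531 (minus).
Pdgfra: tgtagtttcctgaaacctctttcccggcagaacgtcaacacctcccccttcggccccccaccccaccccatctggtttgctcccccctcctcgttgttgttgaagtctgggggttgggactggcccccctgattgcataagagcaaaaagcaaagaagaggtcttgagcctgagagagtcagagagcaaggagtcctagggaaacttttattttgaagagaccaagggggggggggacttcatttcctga
Pdgfc: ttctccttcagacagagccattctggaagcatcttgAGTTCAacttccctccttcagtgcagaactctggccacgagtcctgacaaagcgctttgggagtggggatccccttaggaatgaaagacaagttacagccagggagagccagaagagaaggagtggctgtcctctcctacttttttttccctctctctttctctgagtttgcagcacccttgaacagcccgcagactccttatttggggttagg
Pdgfa: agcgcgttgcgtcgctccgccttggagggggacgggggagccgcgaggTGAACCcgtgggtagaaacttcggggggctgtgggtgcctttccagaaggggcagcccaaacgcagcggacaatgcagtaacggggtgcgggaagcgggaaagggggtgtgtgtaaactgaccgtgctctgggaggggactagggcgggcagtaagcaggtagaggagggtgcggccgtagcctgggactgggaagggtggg

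The Pdgfc window held 1 such hexamer, beginning 214 bases before the start. The Pdgfa window held 1 on the opposite strand, printed as TGAACC and beginning 202 bases before the start. The Pdgfra window and a further Pdgfa window, at chr5:138994945-138995194, held none. A hexamer of this kind was present in 38.6% of 32851 promoter windows of that length used here, so its presence sets no window apart. GATA motifs, searched on either strand as AGATAA and as TGATAA, then as AGATAG and as TGATAG, were in 26.5% of windows and in none of the 4. GC content was 54.4% in the Pdgfra window, 50.8% in the Pdgfc window and 66.4% in the printed Pdgfa window, against a median of 52.4%. A match describes letters only, and no binding was measured here.

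Levels are log2 values of 1 probe set per gene, so differences are read between arrays and not between genes. Where a marker is set beside the median gene, this is a rough placement and does not show that a cell type is present or absent. Times of 24 and 48 h were averaged as late and 2 and 6 h as early, which are different times and not replicates. Both vehicle arrays are at 48 h. In early differences from vehicle, retinoid and time in culture therefore cannot be told apart. Differences are log2 ± SE from 1 limma fit to all 18 arrays, and a gene was called at a Benjamini-Hochberg adjusted p under 0.05 over all genes. The vehicle arrays differed from each other by a median of 0.23 over genes, and by more than 0.88 for the most divergent genes above the 95th percentile. All 8 embryonal carcinoma markers, such as Pou5f1 and Nanog, lay above the level of the median gene, and their mean was 11.32 to 11.56 on the vehicle arrays. Deviations of the levels, not the levels themselves, were correlated between arrays in probe sets with no listed gene (12146). Vehicle replicate 1 and the 4 ATRA arrays correlated with each other at 0.283 on average. The other 13 arrays did so at 0.005, and the sets with each other at -0.185. The ATRA arrays also share a treatment, so for them array set and treatment cannot be told apart. The labels name no batch. The part of this split in the results was not tested beyond fits with the array set as a block, in which ATRA was compared with vehicle replicate 1 and the BMS compounds with vehicle replicate 2.

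Among the ligands, Pdgfa encodes the chain of PDGF-AA. Its level was 8.04 and 7.84 on the vehicle arrays. Under ATRA it was 7.68, 7.14, 7.22 and 6.93 at 2, 6, 24 and 48 h. Under BMS961 it was 7.91, 7.83, 7.05 and 7.09. The ATRA arrays were thus low from 6 h and the BMS961 arrays only from 24 h, and all of those low arrays lay below both vehicle arrays. Under BMS753 it was 7.88, 7.91, 7.71 and 7.79, and under BMS641 8.07, 8.05, 8.09 and 8.05. The BMS641 values lay above both vehicle arrays at every time, by little.

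Late under ATRA, Pdgfa changed by -0.86 ± 0.15 (SE) from vehicle, with a 95% interval from -1.20 to -0.52 (limma, adjusted p = 0.0124). Late under BMS961 it changed by -0.87 ± 0.15 (limma, adjusted p = 0.0199). Pdgfa was the only member called in that BMS961 comparison. The ATRA call was lost without the 48 h ATRA array (-0.70, adjusted p = 0.138), and the BMS961 call without its 24 h (adjusted p = 0.234) or 48 h array (adjusted p = 0.173). Between early and late BMS961 the level fell by 0.80 ± 0.15 (limma, adjusted p = 0.0419), from an early level that differed by -0.06 from vehicle. That call was lost when any 1 of the 4 BMS961 arrays was left out and after quantile normalization. Early under ATRA the difference of -0.52 was not called (limma, adjusted p = 0.169).

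Pdgfc encodes a ligand that is secreted in latent form and freed by proteolysis. Its level was 8.10 and 8.52 on the vehicle arrays. Under ATRA it was 7.23, 6.20, 7.20 and 7.39 at the 4 times. Every ATRA array lay below both vehicle arrays, and the lowest, at 6 h, differed from them by -1.90 and -2.32. Under BMS961 the values were 8.11, 7.55, 7.53 and 7.52, under BMS753 8.24, 8.02, 8.17 and 8.01, and under BMS641 8.53, 8.04, 8.65 and 8.66. From 2 to 6 h Pdgfc changed by -1.04 under ATRA, and by -0.57, -0.22 and -0.49 under BMS961, BMS753 and BMS641. Under ATRA it then rose by 1.00 to 24 h without regaining the vehicle level.

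The highest Pdgfc value among the 4 ATRA arrays, 7.39, lay below the lowest of the other 14, 7.52. Of all genes, 0.502% had every ATRA array below the other 14. Early under ATRA, Pdgfc changed by -1.59 ± 0.19 from vehicle (limma, adjusted p = 0.00174), and with the array set as a block by -1.38 (adjusted p = 0.00699). Late under ATRA it changed by -1.01 ± 0.19 (limma, adjusted p = 0.0138). The late call was lost without vehicle replicate 2, which is the same value as with the array set as a block (-0.80, adjusted p = 0.122), without the 48 h ATRA array (adjusted p = 0.0633) and without the common time steps (adjusted p = 0.0565). Late under BMS961 the difference of -0.78 ± 0.19 was not called (limma, adjusted p = 0.0743). It was called, at -0.99, without vehicle replicate 1 or with the array set as a block (adjusted p = 0.0232).

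Pdgfb, whose product binds both receptor types, ranged from 5.39 at 48 h of ATRA to 6.15 at 2 h of BMS753, with 5.88 and 5.74 on the vehicle arrays. It moved least of the ligands. It was called in 0 of the 16 comparisons in limma and passed an unadjusted p under 0.05 in 1, early between ATRA and BMS641 (-0.42 ± 0.16, adjusted p = 0.265). Late under ATRA its difference from vehicle was -0.24 ± 0.16 (limma, adjusted p = 0.473), and late under BMS961 it was -0.34 ± 0.16 (limma, adjusted p = 0.477).

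**Figure D1:**
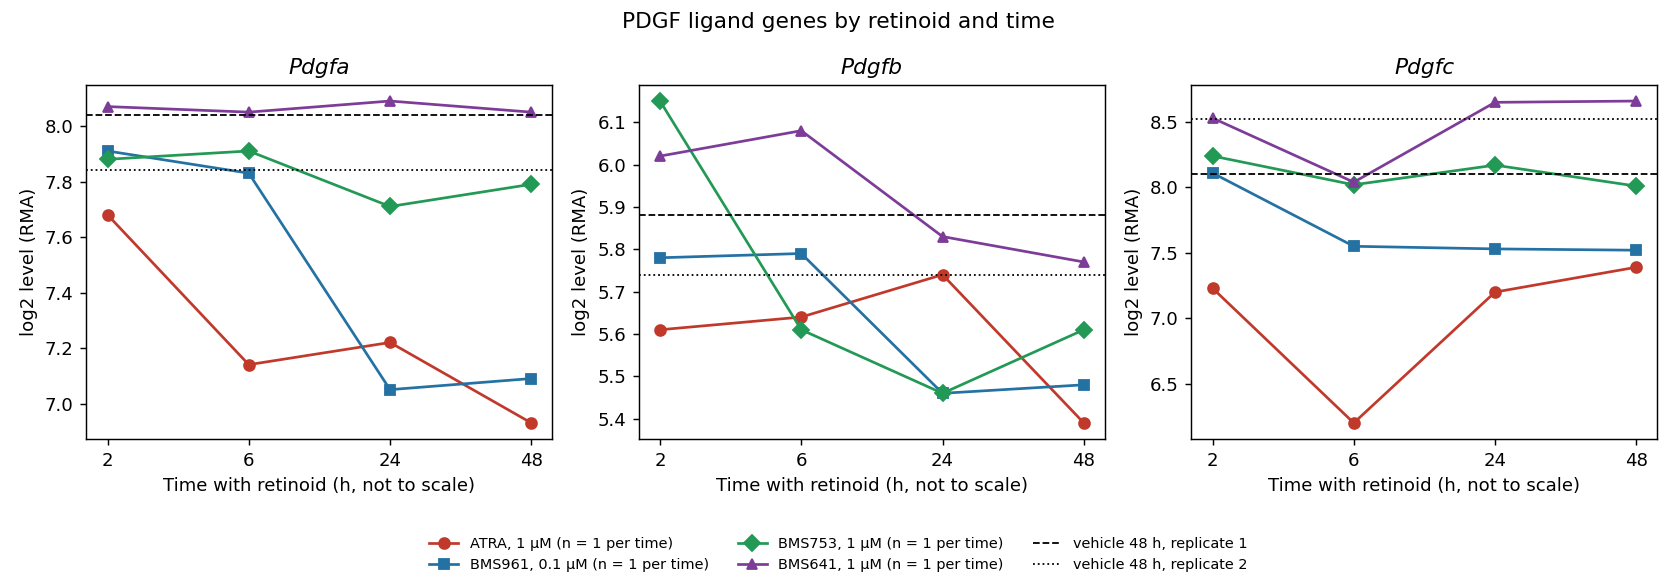
Log2 level of Pdgfa, Pdgfb and Pdgfc on each array against hours of treatment (times evenly spaced, not to scale), with points joined for each retinoid and the 2 vehicle arrays (48 h) drawn as horizontal lines; 1 array stands behind each retinoid point. Pdgfc under ATRA runs from 6.20 to 7.39, below all other arrays, and Pdgfa under BMS961 leaves the vehicle level between 6 and 24 h.

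Among the receptors, Pdgfra encodes PDGF receptor alpha. Its level was 6.24 and 4.92 on the vehicle arrays, a gap of 1.32 that is wider than the 95th percentile of such gaps. Under ATRA it was 5.75, 5.49, 6.15 and 10.04 at 2, 6, 24 and 48 h. Under BMS961 it was 5.16, 4.98, 6.53 and 9.98. The largest step was from 24 to 48 h, 3.88 under ATRA and 3.45 under BMS961, after steps of 0.66 and 1.55 from 6 to 24 h. At 24 h the ATRA array lay between the vehicle arrays and the BMS961 array 0.29 above the higher one, and both 48 h arrays stood far above both vehicle arrays. Under BMS753 it was 5.16, 4.85, 5.20 and 6.16, and under BMS641 4.95, 5.20, 4.70 and 5.16. At 48 h the BMS753 array lay between the vehicle arrays, and so did the BMS641 array.

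At 48 h Pdgfra lay 3.80 and 5.12 above the vehicle arrays under ATRA, and 3.74 and 5.06 above them under BMS961, at a dose lower than that of ATRA. By its difference from the vehicle mean it ranked 8 from the top of 19938 genes under ATRA and 2 under BMS961. Under BMS753, 0.58 above the mean, it ranked 570, and under BMS641 it lay at -0.43. These ranks have no replicate check, since each time is 1 array. With 48 h fitted alone, on 1 residual degree of freedom, Pdgfra differed by 4.46 ± 0.58 under ATRA (limma, adjusted p = 0.116) and by 4.40 ± 0.58 under BMS961 (limma, adjusted p = 0.441), a fit that called 2 genes of all for ATRA and 0 for BMS961.

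Averaged over 24 and 48 h, Pdgfra was 2.52 ± 0.69 above vehicle under ATRA, with a 95% interval from 1.00 to 4.03, and was not called (limma, adjusted p = 0.0616). It was called without vehicle replicate 1 (3.17, adjusted p = 0.0188) and without the 24 h ATRA array (3.65, adjusted p = 0.0122), and with the array set as a block it was 1.86 (adjusted p = 0.39). Without the 48 h ATRA array it was 1.38 (adjusted p = 0.44). Under BMS961 it was 2.68 ± 0.69, with an interval from 1.16 to 4.20 (limma, adjusted p = 0.102), and without vehicle replicate 1 it was called (3.34, adjusted p = 0.0472), while without its 48 h array it was 1.84 (adjusted p = 0.769). The fit gave all retinoids 1 common step from 24 to 48 h, and departures from it enter the SE; that step for Pdgfra was 0.96 under BMS753 and 0.46 under BMS641. Late against early, the differences of 2.47 under ATRA (limma, adjusted p = 0.0536) and 3.19 under BMS961 (limma, adjusted p = 0.063) were not called either, and both were called with the array set as a block (adjusted p = 0.0306 and 0.0227).

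Markers of primitive endoderm were read beside Pdgfra. The mean level of 12 such genes, without Pdgfra, was 7.43 and 6.58 on the vehicle arrays, replicate 1 being the higher one for this list as for Pdgfra. It ran from 7.44 to 9.53 late under ATRA, 7.32 to 8.76 late under BMS961, 6.93 to 7.26 late under BMS753 and 6.72 to 6.81 late under BMS641. The transcription factor Gata6 was 11.30 at 48 h of ATRA against 7.08 and 6.03 in vehicle, and the endocytic adaptor Dab2 was 11.27 against 8.20 and 5.51. Late under ATRA 3 of the 12 rose and 0 fell, namely Gata6, Gata4 and Sox7, where 4.71% of all genes were called, with a median change of 1.43 against -0.02 for all genes. Late under BMS961 1 of 12 rose, Gata6, where 1.26% of all genes were called, with a median of 0.86 against 0.01. The part of these levels in the Pdgfra values was not tested. Of the embryonal carcinoma markers 4 of 8 fell late under ATRA, namely Sox2, Zfp42, Tdgf1 and Utf1. In bulk RNA, more cells of a type and more RNA per cell cannot be told apart.

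Of 10 fibroblast markers, another setting of Pdgfra, 0 were called late under ATRA in limma, where 4.71% of all genes were. At an unadjusted p under 0.05, 2 passed, where 19.8% of all genes did. Their mean level was 4.64 to 4.81 in vehicle and 4.66 to 4.83 late under ATRA. Of the 10, 3 lay above the level of the median gene. Late between ATRA and BMS641, where 14.8% of all genes were called, 1 of 10 was lower, Thy1 (-0.54). Between early and late BMS961, where 0.767% of all genes were called, 1 of 10 fell, again Thy1 (-0.87).

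Pdgfrb encodes PDGF receptor beta. Its level was 5.41 and 5.28 on the vehicle arrays. Under ATRA it was 6.86, 6.86, 6.58 and 6.53 at the 4 times. All 4 ATRA arrays lay above both vehicle arrays, by 1.11 at the least, and were as high at 2 h as later. Under BMS961 it was 5.76, 5.65, 5.88 and 5.97, under BMS753 5.60, 5.30, 5.49 and 6.00, and under BMS641 5.49, 5.69, 5.38 and 5.56. The lowest ATRA array, 6.53, lay above the highest of the other 14, 6.00. Of all genes, 0.487% had every ATRA array above the other 14.

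Early under ATRA, Pdgfrb rose by 1.51 ± 0.15 from vehicle (limma, adjusted p = 0.00094), and late by 1.21 ± 0.15 (limma, adjusted p = 0.00208). With the array set as a block it still rose, by 1.45 (adjusted p = 0.00365) and 1.14 (adjusted p = 0.0171). Of the settings run, only 48 h alone ended the late call (1.18, adjusted p = 0.228). Late against early under ATRA its difference of -0.30 was not called (limma, adjusted p = 0.288). Late under BMS961 Pdgfrb differed by 0.58 ± 0.15 (limma, adjusted p = 0.11), and late under BMS753 by 0.40 ± 0.15 (limma, adjusted p = 0.472), neither of them called.

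Mural cell markers (pericytes and smooth muscle, where Pdgfrb is best known) averaged 5.20 to 5.43 in vehicle, 5.55 to 5.64 early under ATRA and 5.47 to 5.55 late under ATRA. Of 11, 1 rose early under ATRA, where 1.25% of all genes were called, the peptidase gene Anpep by 1.73 ± 0.14 (limma, adjusted p = 0.00015). Late under ATRA 0 were called, where 4.71% of all genes were. At an unadjusted p under 0.05, 4 passed late, where 19.8% of all genes did. Between early and late ATRA, where 7.27% of all genes were called, 1 of 11 fell, Anpep by 1.23, and 1 rose, Des, the muscle filament desmin. Late between ATRA and BMS641, where 14.8% of all genes were called, 1 of 11 was higher, Des by 0.96, and 0 lower. Of the 11, 4 lay above the level of the median gene. Endothelial markers, 7 in all, averaged 5.39 to 5.43 in vehicle and 5.44 to 5.63 late under ATRA. Against vehicle 0 were called in either ATRA phase. At an unadjusted p under 0.05 in limma, 0 passed early (10% of all genes) and 1 late (19.8%). Single members went apart. Cdh5, the endothelial cadherin, was 7.22 at 48 h of ATRA, on 1 array, against 4.18 and 4.47 in vehicle. Late between ATRA and BMS641, where 14.8% of all genes were called, 0 of 7 were higher and 1 was lower, the adhesion molecule Esam (-1.47). The part of these levels in the Pdgfrb values was not tested.

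**Figure D2:**
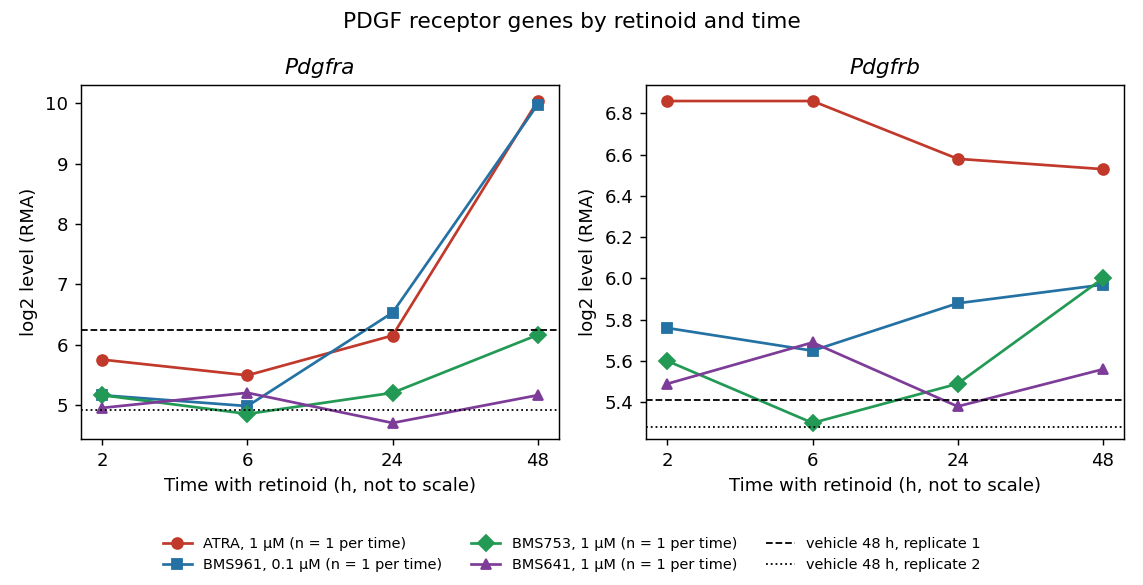
Log2 level of Pdgfra and Pdgfrb on each array against hours of treatment (times evenly spaced, not to scale), with points joined for each retinoid and the 2 vehicle arrays (48 h) drawn as horizontal lines. Pdgfra reaches 10.04 under ATRA and 9.98 under BMS961 at 48 h, and Pdgfrb under ATRA stays between 6.53 and 6.86.

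Counted over the members, 3 of 5 were called late under ATRA (1 rose and 2 fell) where 4.71% of all genes were called, and 2 of 5 early under ATRA (1 rose and 1 fell) where 1.25% were. Under BMS961 1 of 5 was called late, with 1.26% of all genes, and 0 early, with 0.0401%. Under BMS753 0 were called late, with 0.186% of all genes, or early, with 0%. Under BMS641 0 were called late or early, with 0% of all genes in both. At an unadjusted p under 0.05 in limma, 4 members passed late under ATRA (19.8% of all genes), 4 late under BMS961 (11.6%) and 1 late under BMS753 (8.73%). Early, 3 passed under ATRA (10% of all genes), 2 under BMS961 (7.03%) and 0 under BMS753 (5.59%). Under BMS641 0 passed late (4.59% of all genes) or early (7.53%). Between late and early, 1 member was called under BMS961 (0.767% of all genes) and 0 under ATRA (7.27%), BMS753 (0.00502%) and BMS641 (0%). At an unadjusted p under 0.05, 3 members passed between late and early under ATRA (21.3% of all genes), 2 under BMS961 (13.1%), 0 under BMS753 (7.08%) and 0 under BMS641 (1.96%).

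By sign alone, the ligand values of ATRA lay below both vehicle arrays in 11 of 12 cases, and the receptor values above both in 5 of 8. Over all genes 32.1% of ATRA values lay below both vehicle arrays and 30.6% above both. Under BMS961, ligands lay below both in 8 of 12 cases and receptors above both in 6 of 8, where 25.5% and 33.1% of all values did. Under BMS753 ligands lay below both in 7 of 12 cases and receptors above both in 3 of 8, where 25.7% and 31.1% of all values did. Under BMS641 ligands lay above both in 9 of 12 cases and receptors in 3 of 8, where 33.2% of all values did. The cases share vehicle arrays, and times of a retinoid are not independent.

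**Figure D3:**
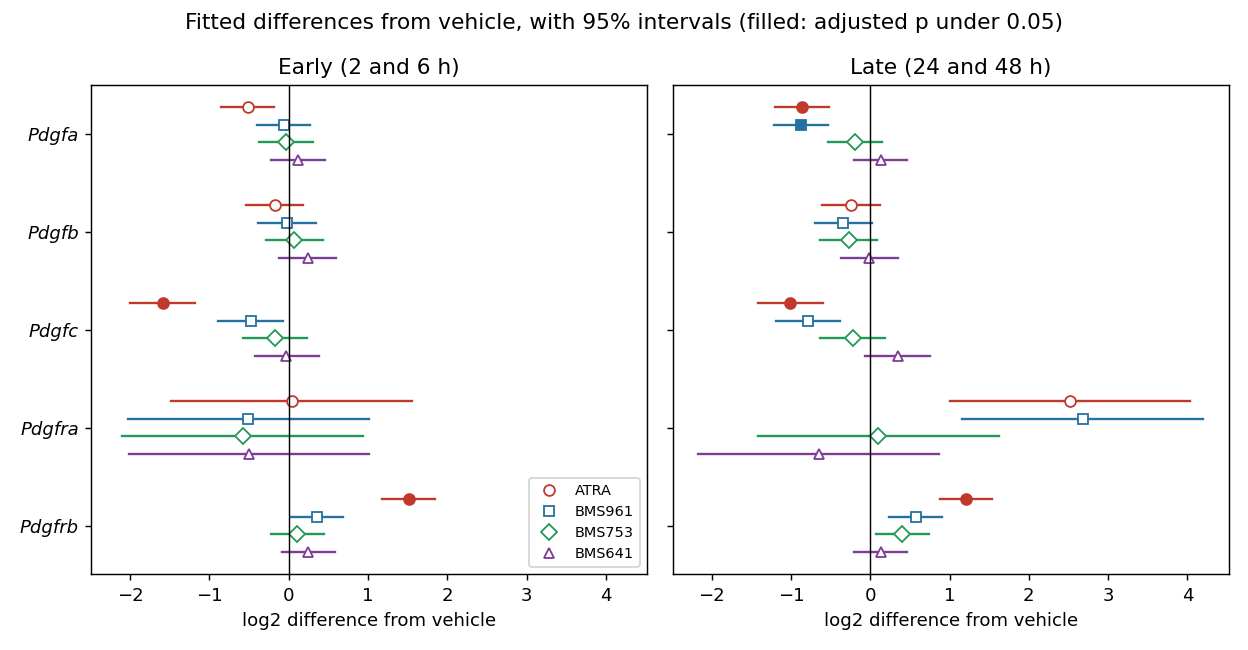
Log2 difference from vehicle with its 95% interval for each member, early (2 and 6 h) and late (24 and 48 h), for each retinoid, from the fit to all 18 arrays; filled symbols mark calls. The Pdgfrb intervals under ATRA lie above 0, the Pdgfc intervals under ATRA below 0, and the wide Pdgfra interval late under ATRA runs from 1.00 to 4.03.

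Retinoids at the same dose were then set against each other, ATRA and BMS753 each against BMS641, early and late, which made 4 comparisons over all genes. Late, 4 of 5 members were called between ATRA and BMS641, where 14.8% of all genes were. Pdgfra was 8.99-fold higher under ATRA, a difference of 3.17 ± 0.69 with a 95% interval from 1.65 to 4.69 (limma, adjusted p = 0.0131). Pdgfrb was 2.12-fold higher (1.08 ± 0.15, limma, adjusted p = 0.00251). Pdgfc was 2.56-fold lower (-1.36 ± 0.19, limma, adjusted p = 0.00228), and Pdgfa was 2-fold lower (-1.0 ± 0.15, limma, adjusted p = 0.00343). Pdgfb differed by -0.24 ± 0.16 (limma, adjusted p = 0.394). By time, Pdgfra lay 0.81, 0.28, 1.45 and 4.88 above BMS641 under ATRA at 2, 6, 24 and 48 h.

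Early, 2 of 5 members were called between ATRA and BMS641, where 1.6% of all genes were. Pdgfc was 2.96-fold lower (-1.57 ± 0.19) and Pdgfrb 2.41-fold higher (1.27 ± 0.15), both with an adjusted p of 0.00258 in limma. Pdgfa differed by -0.65 ± 0.15 (limma, adjusted p = 0.0682) and Pdgfra by 0.55 ± 0.69 (limma, adjusted p = 0.802). With the array set as a block, 0 members were called early or late, when calls over all genes went from 319 to 10 early and from 2948 to 13 late, and the late Pdgfra difference was 1.85 (adjusted p = 0.691). The other late differences were then -1.20 ± 0.26 for Pdgfa, -0.94 ± 0.29 for Pdgfc and 0.95 ± 0.26 for Pdgfrb. Early, Pdgfc differed by -1.15 ± 0.29 and Pdgfrb by 1.13 ± 0.26. Each SE was larger than without the block, and these values also hold the gap between the vehicle arrays. Without the 48 h BMS641 array 0 members and 67 genes in all were called late, with adjusted p of 0.0685 for Pdgfa, 0.0518 for Pdgfc, 0.197 for Pdgfra (2.01) and 0.0547 for Pdgfrb. The Pdgfra call was also lost without the 48 h ATRA array (2.04, adjusted p = 0.127) and without the common time steps (adjusted p = 0.059). Early, Pdgfrb lost its call without the 2 h BMS641 array (1.1, adjusted p = 0.0575) and Pdgfc without the 6 h BMS641 array (-1.51, adjusted p = 0.082).

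BMS753 and BMS641 differed in 0 members early and late in limma, where 0% of all genes were called in each. At an unadjusted p under 0.05, 0 members passed early (1.2% of all genes) and 1 late (4.06%). The late 95% intervals of BMS753 minus BMS641 ran from -0.66 to 0.02 for Pdgfa, -0.97 to -0.16 for Pdgfc, -0.76 to 2.28 for Pdgfra and -0.06 to 0.61 for Pdgfrb. For Pdgfra this interval still holds differences of several fold. These comparisons do not show that the compounds act alike.

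BMS961 was at a lower dose than BMS641, so the values are set side by side with no test. Pdgfra was 9.98 under BMS961 and 5.16 under BMS641 at 48 h. At the same time Pdgfa was 7.09 and 8.05, Pdgfc 7.52 and 8.66, and Pdgfrb 5.97 and 5.56. BMS961 and ATRA also differed in dose. Pdgfra was 9.98 and 10.04 under them at 48 h, whereas Pdgfrb at 2 h was 5.76 under BMS961 and 6.86 under ATRA, and Pdgfc at 6 h was 7.55 and 6.20.

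**Figure D4:**
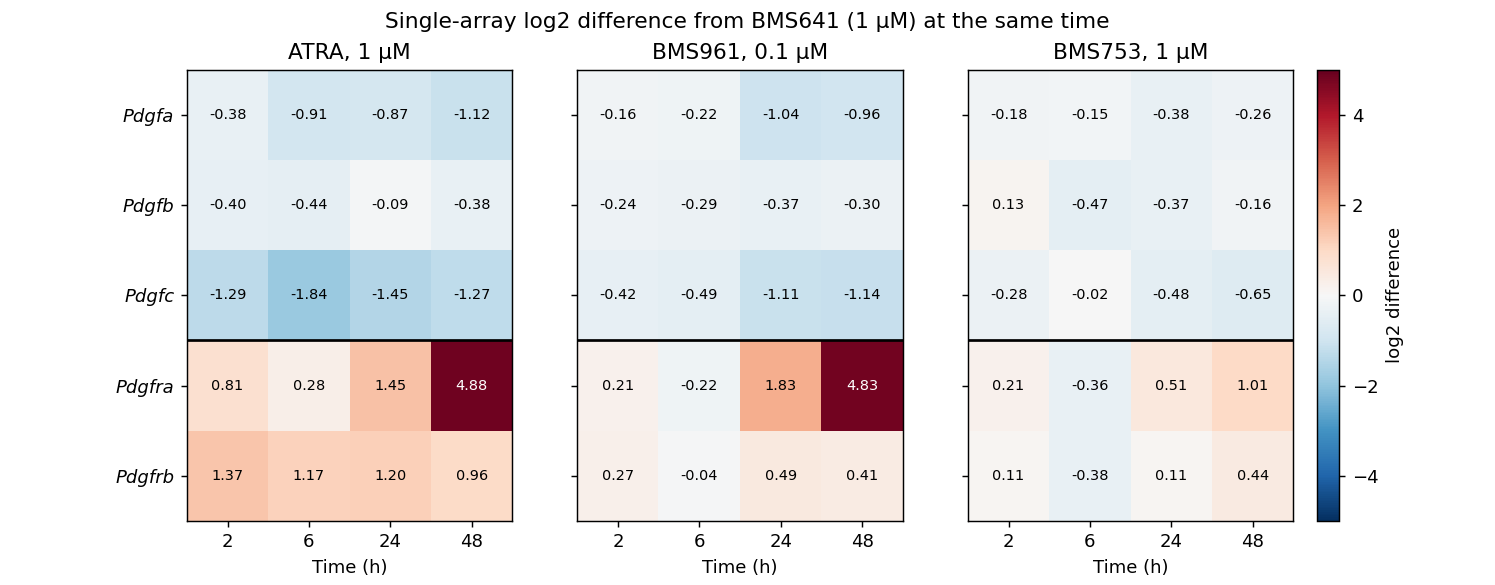
Log2 difference of each member from the BMS641 array of the same time, at 2, 6, 24 and 48 h, in a panel each for ATRA, BMS961 (at a lower dose) and BMS753; each coloured square is 1 array minus 1 array, red for higher and blue for lower, with no error. Pdgfra under ATRA and BMS961 reaches 4.88 and 4.83 at 48 h, and Pdgfc under ATRA lies between -1.84 and -1.27.

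Across the 18 arrays the ligand Pdgfa ran against the receptors, with Pearson's r of -0.74 with Pdgfra and -0.69 with Pdgfrb. Pdgfc ran against Pdgfrb at -0.85 but only weakly against Pdgfra, at -0.37. Pdgfb stood at -0.57 with Pdgfra and -0.38 with Pdgfrb. Pdgfa ran with Pdgfc at 0.75 and with Pdgfb at 0.70, Pdgfb with Pdgfc at 0.43, and the receptors with each other at 0.42. The arrays share agents and times, so these values describe the pattern only.

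Among 4307 genes whose level spanned at least 1 over the arrays, those most like Pdgfra were Stard8 (Pearson's r = 0.982), Tent5a (0.979) and 2210409E12Rik (0.97). Those most like Pdgfrb were Nol4l (0.932), Bcar1 (0.916) and Calr (0.911). For Pdgfa they were Ctbp2 (0.935), Dab1 (0.934) and Foxd3 (0.914), the last a transcription factor of pluripotent and neural crest cells. For Pdgfc they were Laptm5 (0.909), Rapgef2 (0.899) and Mitf (0.887), and for Pdgfb Slc17a9 (0.865), Thy1 (0.862) and Mapk4 (0.846).

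Neighbouring genes were read for the members with a position in the gene table. On the GRCm38.p6 assembly Pdgfra (chr5:75151322-75198206) lies 376.8 kb from Kit, a related receptor tyrosine kinase gene, and 73.4 kb from the homeobox gene Gsx2. Kit was 9.21 and 7.19 on the vehicle arrays and 10.32, 10.80, 10.67 and 8.99 under ATRA at 2, 6, 24 and 48 h. Under ATRA Kit was thus highest at times when Pdgfra was low. Under BMS961 it was 8.53, 9.41, 9.78 and 9.64, and so about as high at 48 h, with Pdgfra high, as at 24 h. Early, Kit was 3.01 ± 0.56 higher under ATRA than under BMS641 (limma, adjusted p = 0.0231). Gsx2 differed by 0.12 from vehicle late under ATRA (limma, adjusted p = 0.881).

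Pdgfa (chr5:138976014-139000792) lies 16.5 kb from Prkar1b, a regulatory subunit gene of protein kinase A, which rose by 0.81 late under ATRA (limma, adjusted p = 0.0353) while Pdgfa fell. Gm5294, 154.3 kb away on the other side, differed by 0.02 late under ATRA (limma, adjusted p = 0.951). Pdgfc (chr3:81036416-81214040) lies 122.8 kb from the glycine receptor gene Glrb, which rose by 1.51 late under ATRA (limma, adjusted p = 0.0309) while Pdgfc fell. Ctso, 718.6 kb away on the other side, differed by 0.30 late under ATRA (limma, adjusted p = 0.396). Pdgfb (chr15:79995865-80024614) lies 24.7 kb from Cbx7, a Polycomb gene, with a difference of -0.65 late under ATRA (limma, adjusted p = 0.0593). Syngr1, 66.7 kb away on the other side, differed by -0.15 late under ATRA (limma, adjusted p = 0.81). Pdgfrb lies 8.9 kb from the homeobox gene Cdx1, which differed by 0.86 late under ATRA (limma, adjusted p = 0.154), and 20.5 kb from the receptor gene Csf1r, which differed by -0.11 (limma, adjusted p = 0.718).

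Of 55 other genes of the pathway (a further ligand, ligand processing, co-receptors, adaptors and the kinases after the receptors), 49 were measured. Late under ATRA 4 rose and 0 fell, where 4.71% of all genes were called, with a median change of 0.18 against -0.02 for all genes. They were the co-receptor Nrp1 by 1.28 ± 0.17 (limma, adjusted p = 0.00242), the exchange factor Sos2 by 1.20 ± 0.24 (limma, adjusted p = 0.0185), the ligand-cleaving protease gene Plau by 0.94 ± 0.19 (limma, adjusted p = 0.0202) and the receptor scaffold Slc9a3r2 by 0.78 ± 0.19 (limma, adjusted p = 0.0436). Nrp1 was 4.43 and 4.32 in vehicle, 4.66, 5.33, 5.38 and 5.94 under ATRA and 4.37, 4.64, 5.60 and 6.12 under BMS961. It thus rose over time with both, and on the BMS753 and BMS641 arrays it lay between 4.16 and 4.64. Late under BMS961 1 rose, Nrp1 by 1.48 ± 0.17 (limma, adjusted p = 0.00187), and 2 fell, the phosphatase Ptprj by 0.74 and the transcription factor Stat3 by 0.52, where 1.26% of all genes were called, with a median of 0.08 against 0.01. Under BMS753 and BMS641, early and late against vehicle, 0 of 49 were called in limma, where 0% to 0.186% of all genes were. Between 2 and 5 passed an unadjusted p under 0.05, where 4.59% to 8.73% of all genes did.

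Early under ATRA, where 1.25% of all genes were called, 1 of 49 rose, the kinase Src by 0.67 ± 0.11 (limma, adjusted p = 0.0118). Late against early, 4 rose under ATRA (Sos2, Plau, the kinase Fyn and Nrp1; 7.27% of all genes called) and 1 under BMS961 (Nrp1; 0.767%). Late, between ATRA and BMS641, 10 were higher and 2 lower, where 14.8% of all genes were called, with a median of 0.17 against -0.04. With the array set as a block only 13 genes in all were called there. The largest was the protease gene Plat, whose product frees PDGF-C from its latent form, by 2.69 ± 0.72 (limma, adjusted p = 0.0284). Plat was 5.42 and 5.04 in vehicle and 5.13, 4.70, 5.25 and 9.55 under ATRA, and 7.10 at 48 h of BMS961. Like Pdgfra, Plat had its highest value at 48 h of ATRA. The phosphoinositide 3-kinase subunit gene Pik3r1 was higher by 1.65 ± 0.44 (limma, adjusted p = 0.0282), and the 2 lower genes were the adaptor Grb2 and the kinase Map2k1, by -0.41 and -0.43. Early, where 1.6% of all genes were called, 2 were higher (Nrp1 and Src) and 1 lower (Fyn).

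The further ligand gene Pdgfd differed by 0.22 late under ATRA (limma, adjusted p = 0.51). Related growth factor and receptor genes, 15 in all, included the VEGF family and the receptors most like those of PDGF. Late under ATRA, where 4.71% of all genes were called, 1 rose, Vegfa by 0.84 ± 0.18 (limma, adjusted p = 0.0236), and 0 fell. Early between ATRA and BMS641, where 1.6% of all genes were called, 1 was higher, Kit. Late, where 14.8% were, 1 was higher, Vegfa by 0.98 ± 0.18 (limma, adjusted p = 0.00616).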

How the data were processed

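Biotin-labelled total RNA of F9 cells was hybridised to Affymetrix whole-transcript arrays. The authors deposited log2 values for each probe set. The submitters' processing notes name RMA and Affymetrix Expression Console 1.1. Which arrays were normalized together is not given in the sources used here. Values, 2.05 to 14.36 with array medians of 5.31 to 5.47, were used as deposited. The number of arrays limits the precision.

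Of 35556 probe sets, 21789 had 1 gene symbol, and the one with the highest mean stood for each of 19938 genes. With limma 3.58.1 under R 4.3.3, all arrays were fitted by 9 group means, for vehicle and for the early and the late arrays of every retinoid, plus a shared 2 to 6 h step and a shared 24 to 48 h step, with 7 residual and 4.55 prior degrees of freedom. Calls were at an adjusted p under 0.05 within a comparison. The fit was run on simulated data with independent noise and the same added change in both late ATRA arrays. Differences by time or array set were not simulated, so that run does not test the p-values given here. Promoters were read with Python 3.11.15 from RefSeq's table. Alternatives were quantile normalization, median centring, a filter on dim genes, mean probe sets, no common steps, trend and robust eBayes, the array set as a block, leaving out each array and, chosen after seeing the data, 48 h alone. Named besides the members were up to 4 called genes per list and comparison and the 3 genes most like each member. The nearest measured gene on each side was named too. Called markers and the 2 lower pathway genes were chosen after their values were seen. Pou5f1, Nanog, Pdgfd and Cdh5, not called late under ATRA, fall outside these rules, and Cdh5 was named for its level on 1 array. Members and lists were chosen with earlier results of these data known.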

Additional observations from a re-analysis of the deposited data

Results flagged for a closer look

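Members whose responses differed between retinoids or between phases by a test of the difference itself were as follows. Between ATRA and BMS641 at the same dose, Pdgfra (3.17) and Pdgfrb (1.08) were higher and Pdgfa (-1.0) and Pdgfc (-1.36) lower late. Early, Pdgfrb was higher (1.27) and Pdgfc lower (-1.57). Between early and late BMS961, Pdgfa differed by -0.80. All values are log2 differences from the fit to all 18 arrays. The ATRA and BMS641 arrays also lie in different array sets, and with the set as a block 0 members were called in either ATRA and BMS641 comparison.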

How the results depend on the processing

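Of 852 values of members under alternatives, 811 kept their side of the threshold without a call being lost, gained or reversed, 30 lost and 11 gained a call. Most of the 852 belong to results not called in the main fit, where no call could be lost. Of 16 comparisons each, Pdgfa, Pdgfc and Pdgfrb were called in 4, Pdgfra in 1 and Pdgfb in 0. All 30 losses fall on these called results, so 811 of 852 does not measure how stable the calls are. Among the 852 values 51 changed sign, 0 of these called before or after. Without regard to sign, the largest main value among these was 0.76 and the largest alternative value 1.01. Late under ATRA against vehicle 3 members and 940 genes were called, 1 to 4 members and 148 to 3594 genes when 1 array was left out, and 0 members and 2 genes at 48 h alone. Late under BMS961 1 member and 252 genes were called, 3 and 716 with the array set as a block, 0 to 3 and 19 to 815 without 1 array, and 0 and 0 at 48 h alone. Early under ATRA 2 members were called (249 genes), and 1 among genes above the median level, where only 2 members remained (284 genes). Late against early, ATRA had 0 member calls (1449 genes), 2 with the block (2554) and 0 to 1 without 1 array (31 to 2028). BMS961 had 1 (153 genes), 0 after quantile normalization (190), 2 with the block (767) and 0 without any of its own 4 arrays (1 to 9). Between ATRA and BMS641, early member calls of 2 (319 genes) became 0 with the block (10) and 1 to 2 without 1 array (17 to 113). Late calls of 4 (2948 genes) became 2 among genes above the median level (2815), 0 with the block (13) and 0 to 4 without 1 array (67 to 2503). The left-out values rest on fewer arrays and the filtered values on fewer tested genes, and counts moved both up and down. The cause of these shifts was not tested. No paired analysis by replicate number was possible because no groups share replicate numbers; times were matched through the common steps and by subtracting the BMS641 array of the same time. Each retinoid and time is 1 array, and signal over background is unknown here, so small changes of dim probe sets cannot be resolved. The mean levels of Pdgfb (5.72), Pdgfrb (5.85) and Pdgfra (5.92) lay below that of the median gene, 5.95, so this limit applies to their small differences.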
